A study of Rattus norvegicus with 24 samples.

Results

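Interferon-stimulated genes are the transcripts that cells make in response to interferons, and 33 of them were followed here in rat lung across 4 exposure groups. Their list of symbols was drawn up with earlier results of these data known. The 33 were chosen by name, as every gene of the deposited table whose symbol was on that list, out of 30043 genes in all. Of these, 31 had enough reads for a test, among 13322 genes tested, and the other two, Ifit1 and Cxcl10, did not. RNA of a piece of lung was sequenced from 24 male Fischer rats (F344/DuCrl), 3 months old at purchase, with 6 animals in each group and exposures in whole-body inhalation chambers over a total of 29 weeks. Air animals breathed air throughout. Silica animals breathed crystalline silica dust (Min-U-Sil5) at 15 mg/m3 for 6 hours a day on 5 days of week 3, and air otherwise. Smoke animals breathed cigarette smoke for 3 hours on each Tuesday and Friday, at 40 mg/m3 in the first week and 80 mg/m3 in the second, breathed air in week 3, and returned to 80 mg/m3 from week 4. Combined animals followed the smoke schedule with a first week at 45 mg/m3, and received the silica exposure in week 3. The study's factorial layout asks what silica, smoke and both together changed. Levels are given as CPM, a gene's counts scaled to a common library size with TMM scaling, and are compared for 1 gene between groups. Transcript lengths were not used, so genes are not otherwise compared with each other. Where genes are named as the most abundant of a list, this means the highest CPM and not the most molecules.

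Type I and type III interferons are secreted when sensors in the cytosol or in endosomes bind viral or misplaced nucleic acid. They act through the kinases JAK1 and TYK2 on a complex that includes STAT2 and IRF9 and binds the interferon-stimulated response element in promoters. Interferon gamma acts through gamma-activated sites. The induced genes include more sensors, the transcription factors of the pathway itself, proteins that block viral replication, and chemokines that draw T cells, and in lung both epithelium and macrophages make them.

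Sequencing depth was uneven, and a few libraries stood apart. Smoke 2 had 21629 counts, 56.0% of them from haemoglobin genes. Silica 4 had 280484, and all others had 1084815 to 4687805. Only 13 of the 33 members had a count in smoke 2, and a member at 0 there may lie anywhere up to 159 CPM, the level of 3 counts (counting error only). The summed neutrophil markers were 151 CPM in silica 1 against 498 to 703 CPM in the other silica libraries, and 550 CPM in smoke 1 and 794 CPM in smoke 2 against 162 to 216 CPM in the other smoke libraries. Air 6, the deepest library, had a limma voom quality weight of 0.269, against 1.13 to 1.61 in the other air libraries. Its summed macrophage markers, at 587 CPM, were the lowest in air. The deposited labels were used throughout, and the number of members called is repeated with silica 1, smoke 1 and smoke 2 left out. For some results air 6 was left out as well. Alveolar type 2 markers summed to 12847 to 28696 CPM in every library but smoke 2 (1589 CPM), as in lung tissue. They stood at 13000 CPM in silica 1, within the air range of 12847 to 20939, against 22765 to 25746 in the other silica libraries, and endothelial markers at 3213 CPM in silica 1 against 2052 to 2381. Smoke 1 had 20533 CPM of type 2 and 2644 CPM of endothelial markers, against 14326 to 16630 and 2940 to 3227 in smoke 3 to smoke 6. By these markers and the neutrophil ones silica 1 stood nearer to the air libraries than to its own group, and smoke 1 apart from its group in the direction of the silica libraries.

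The interferon-stimulated genes as a group stood at much the same summed level in all 4 groups. Summed over the 33 members, the group medians were 1887 CPM in air, 1987 in silica, 1958 in smoke (1925 without smoke 2) and 2028 in combined. All libraries but smoke 2 lay between 1649 and 2255. Smoke 2 stood at 6937 CPM, of which Rsad2 alone made 4872 from 92 counts. Such a sum is weighted to the members with the most counts and would show little of a rise in those with few. A member was called changed where edgeR's quasi-likelihood test gave a Benjamini-Hochberg adjusted p under 0.05 over all 13322 genes. By that rule 4 of 31 tested members rose in combined against air and none fell, where 22.4% of all genes were called (11.6% higher, 10.8% lower). The members' share that rose was thus close to that of all genes, while no member was among those that fell. At an unadjusted p under 0.05 there were 7 members, where 34.7% of genes passed. No member was called in silica against air or in smoke against air, and none in combined against silica, combined against smoke or the interaction. The members' median log2 fold change was 0.04 in combined against air, 0.08 in silica against air and 0.02 in smoke against air, where all genes tested had medians of -0.01, -0.00 and -0.01. In no comparison of 2 groups did all 6 libraries of a group stand above all 6 of the other for any tested member, where 11.3% of genes were separated in this way in combined against air, 0.893% in silica against air, 0.518% in smoke against air, 1.31% in combined against silica and 4.77% in combined against smoke. Smoke 2 restricts this wherever smoke is compared. A gene without a count there cannot have all smoke libraries above another group, and a gene inflated there cannot have them all below. Of all genes 0.0375% were separated higher and 0.48% lower in smoke against air. In combined against smoke these were 4.51% and 0.255%.

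**Figure D1:**
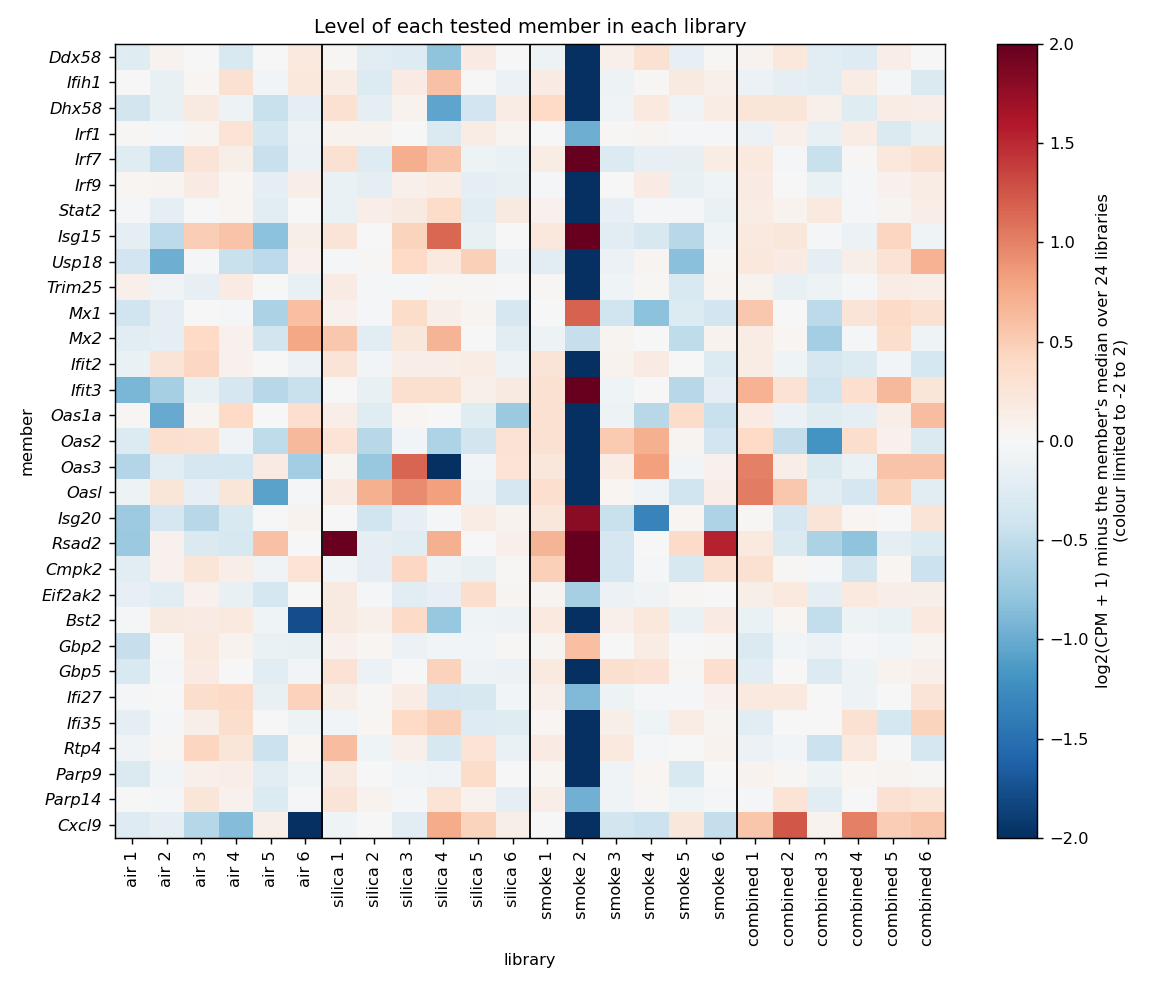
Each tile is 1 of the 31 tested members (vertical axis) in 1 of the 24 libraries (horizontal axis), coloured by log2(CPM + 1) minus that member's median over the 24 libraries, with the colour limited to -2 to 2. No group forms a block of 1 colour, the shallow library smoke 2 stands apart in both directions, and the combined libraries are mostly above the median for Ifit3 and Cxcl9.

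The 4 members that rose in the combined group were 2 of the antiviral effectors (Ifit3 and Oas3), a chemokine (Cxcl9) and a regulator of ISG15 (Usp18). Ifit3 (NCBI gene 309526) encodes a protein that works with other IFIT proteins to bind foreign RNA. It ran from 23.7 to 41.2 CPM in air (median 31.9), 41.2 to 57.4 in silica (50.5), 30.7 to 56.5 in smoke without smoke 2 (42.9), and 34.5 to 74.4 in combined (57.2), with 424 CPM in smoke 2. Combined 3, at 34.5 CPM, lay within the air range, and the other combined libraries lay above it. The log2 fold change from air to combined was 0.84 ± 0.19 (SE, n = 6 and 6, edgeR adjusted p = 0.00158), a 1.79-fold difference with a 95% interval of 1.37 to 2.33.

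Cxcl9 (246759) is a chemokine induced chiefly by interferon gamma that attracts T cells carrying CXCR3. It ran from 0.205 to 11.2 CPM in air (median 7.50), 8.61 to 17.9 in silica (10.7), 7.13 to 12.1 in smoke without smoke 2 (7.77), and 10.9 to 25.6 in combined (15.5). Air 6 held the 0.205 CPM and air 5 the 11.2 CPM, so that combined 3, the lowest of its group, overlapped with a single air library. The log2 difference between combined and air was 1.47 ± 0.33 (n = 6 and 6, edgeR adjusted p = 0.00196), or 2.76-fold (1.72 to 4.44). Without air 6, silica 1, smoke 1 and smoke 2 the difference was 1.11 ± 0.22 (edgeR adjusted p = 2.73e-04).

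Usp18 (312688), the protease that removes ISG15 from proteins and also restrains signalling at the type I interferon receptor, ran from 12.2 to 26.6 CPM in air (median 18.5). Its range was 23.3 to 35.2 CPM in silica (27.1), 13.6 to 26.2 in smoke without smoke 2 (22.9) and 21.8 to 41.3 in combined (28.7). Air and combined overlapped between 21.8 and 26.6 CPM. The log2 difference between them was 0.56 ± 0.17 (edgeR adjusted p = 0.0155), or 1.47-fold (1.16 to 1.87), and it did not pass without combined 6 (adjusted p = 0.0635).

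Oas3 (494202), a synthetase of the oligoadenylates that switch on RNase L, was the least firm of the 4. It ran from 2.87 to 5.98 CPM in air (median 3.91), 0 to 12.9 in silica (5.23), 4.99 to 9.96 in smoke without smoke 2 (5.92) and 4.13 to 11.5 in combined (7.05). The silica library at 0 was silica 4, the second shallowest, and 3 of the 6 combined libraries lay within the air range. Its log2 difference was 0.86 ± 0.31 (edgeR adjusted p = 0.0436), and leaving out 1 library ended the call in 9 of 24 cases, with adjusted p up to 0.153 (without combined 1). With DESeq2 Cxcl9 passed and Ifit3 (adjusted p = 0.171), Usp18 (0.0736) and Oas3 (0.186) did not.

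Without silica 1, smoke 1 and smoke 2, the members called higher in combined against air again numbered 4, now with Ifit1 in place of Oas3 (0.85 ± 0.33, edgeR adjusted p = 0.0549), where 25.6% of genes were called (12.1% higher). Ifit1, a cap-sensing relative of Ifit3, was too low to test in all 24 libraries, at medians of 1.58 CPM in air, 1.86 in silica, 2.06 in smoke (2.14 without smoke 2) and 3.90 in combined. With those libraries left out its log2 difference was 1.37 ± 0.43 (edgeR adjusted p = 0.0207). The air range of 0 to 2.44 CPM and the combined range of 1.55 to 7.40 CPM overlapped. Reads of the IFIT genes, of Mx1 and Mx2, of the Oas1 copies and of the Gbp genes could be split between near-identical copies by the counting, so values within these families are uncertain.

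**Figure D2:**
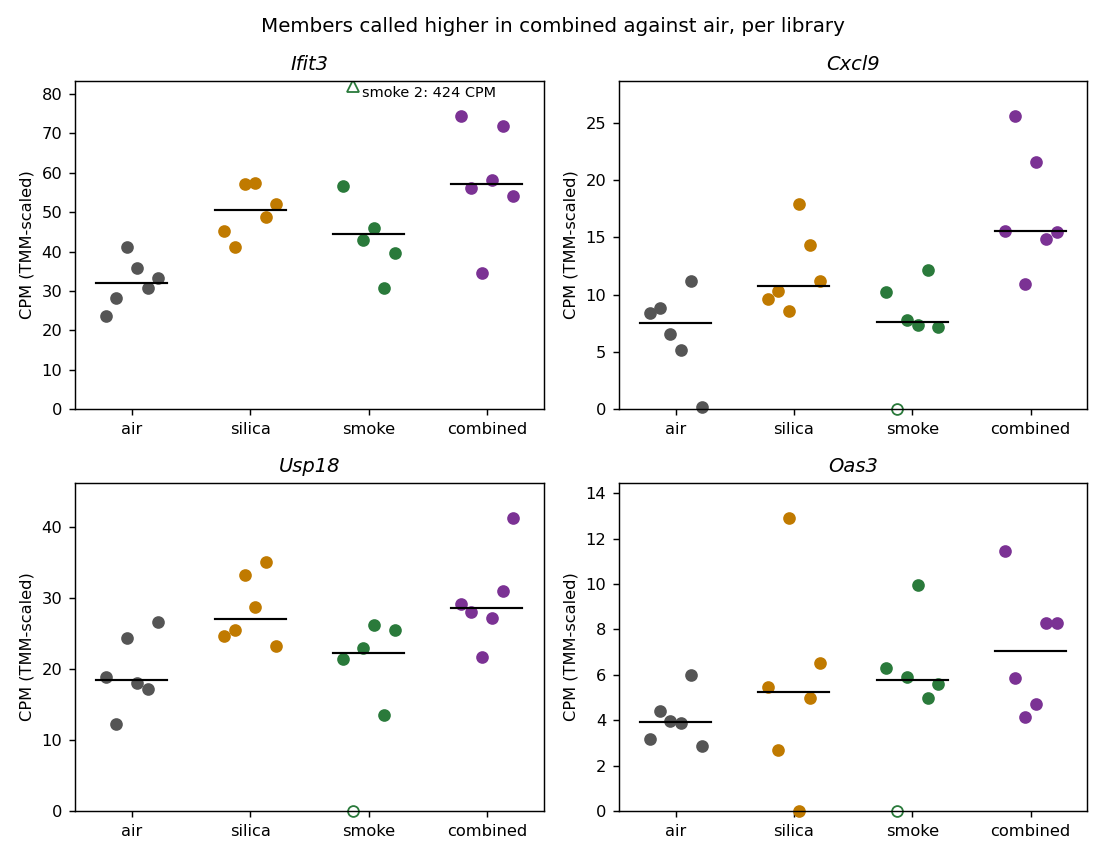
Each point is 1 library and each bar the median of all 6 libraries of a group, in CPM after TMM scaling (vertical axes start at 0), for the 4 members called higher in combined than in air. Smoke 2 is drawn open, and its Ifit3 value of 424 CPM lies beyond the axis. For Ifit3, 5 of 6 combined libraries stand above every air library.

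Some of these genes have, near their start, the sequence motifs through which interferon acts, and a few are shown. Those with the response element are shown because the same motif letters precede members that rose and members that did not pass. Irf1 is shown as an example of the gamma-activated site. Promoter windows, from 250 bases before to 50 after the annotated start, were taken from RefSeq (GRCr8), where 24 of the 33 members have an entry. The core of the interferon-stimulated response element was searched as GAAA, any 2 bases and GAAA again, and the core of the gamma-activated site as TTC, any 3 bases and GAA, each on both strands. Overlapping matches were counted separately, and a window with several counted once. The first was found in 14 of the 24 member windows (58.3%) against 3.92% of 33469 windows of the same length, and the second in 6 of 24 (25.0%) against 8.87%. Of the 24 windows 7 held neither, those of Stat2, Trim25, Mx1, Oasl, Cmpk2, Ifi35 and Parp9, and 9 members, Usp18 among them, had no entry. The gamma-activated match of Cxcl9 began at base 33, downstream of the start. Stretches are printed 5′ to 3′ on the gene's strand with the match in capitals; a match on the opposite strand reads as its reverse complement. Ifit3 lies at chr1:241527257-241527316 (plus strand, match from base -44 relative to the start), Isg20 at chr1:142239942-142240001 (plus, -92) and Bst2 at chr16:18255058-18255117 (minus, -125), and all 3 hold the same 10 letters.
Ifit3: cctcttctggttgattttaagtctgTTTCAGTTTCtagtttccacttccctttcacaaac
Isg20: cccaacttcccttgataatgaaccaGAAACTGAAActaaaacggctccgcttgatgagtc
Bst2: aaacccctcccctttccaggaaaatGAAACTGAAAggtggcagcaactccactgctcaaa
Oas3 at chr12:41439612-41439671 (plus, -95) and Eif2ak2 at chr6:21941113-21941153 (plus, -16) share another version of the motif.
Oas3: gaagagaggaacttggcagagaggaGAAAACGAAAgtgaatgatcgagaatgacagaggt
Eif2ak2: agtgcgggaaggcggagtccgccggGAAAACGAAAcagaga
Irf1 at chr10:38417768-38417826 (plus, -142) shows a gamma-activated site.
Irf1: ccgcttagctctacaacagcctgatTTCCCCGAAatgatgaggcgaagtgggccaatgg
Of these 6, Ifit3 and Oas3 rose in combined against air, while Isg20 (log2 0.32 ± 0.20), Bst2 (0.03 ± 0.20), Eif2ak2 (0.22 ± 0.09, edgeR adjusted p = 0.0833) and Irf1 (-0.07 ± 0.09) did not pass. A match is a description of letters and was not tested for binding.

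Among the RNA sensors, none of 3 passed in combined against air. Ddx58 (RIG-I, which binds uncapped viral RNA ends) had medians of 63.5 CPM in air and 65.2 in combined, with ranges of 51.3 to 72.9 and 52.6 to 73.8, a log2 difference of 0.04 ± 0.11. Ifih1 (MDA5, which binds long double-stranded RNA) had medians of 60.6 and 53.5 CPM and a difference of -0.21 ± 0.10 (edgeR adjusted p = 0.156). Dhx58 (LGP2, a regulator of the other two) had medians of 20.7 and 25.9 CPM and a difference of 0.30 ± 0.14 (adjusted p = 0.115). The 2 groups overlapped for each sensor.

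None of the 4 transcription factors passed in any comparison with air. Irf9, the DNA-binding subunit of the type I complex, had medians of 76.7 CPM in air, 67.1 in silica, 70.8 in smoke and 76.1 in combined. The combined difference was -0.00 ± 0.09, with a 95% interval from 0.88-fold to 1.13-fold. Stat2, its partner, had medians of 109, 123, 104 and 119 CPM, and the combined difference was 0.17 ± 0.09 (edgeR adjusted p = 0.192). Irf7, the factor that amplifies type I interferon production, had medians of 51.2, 63.3, 58.3 and 62.9 CPM with a combined difference of 0.18 ± 0.19 and a silica difference whose interval ran from 0.925-fold to 1.60-fold. Irf1, which interferon gamma induces strongly, had medians of 105, 109, 104 and 95.7 CPM. The smoke medians of these factors include smoke 2, where Irf7 stood at 530 CPM from 10 counts. Without smoke 2 they were 71.7 CPM for Irf9, 108 for Stat2, 52.1 for Irf7 and 105 for Irf1.

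In the ISG15 system, Usp18 rose as described and the other two members did not pass. Isg15, the ubiquitin-like modifier itself and a widely used marker of interferon signalling, ran from 9.35 to 26.1 CPM in air (median 17.0) and 16.0 to 23.6 in combined (18.4), and all combined libraries lay inside the air range. Its difference was 0.08 ± 0.21. Trim25, a ligase for ISG15 and an activator of RIG-I, stood at 0.04 ± 0.09.

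Of 13 tested antiviral effectors Ifit3 and Oas3 rose in combined against air, none fell and 11 did not pass. Mx1, a dynamin-like GTPase that blocks influenza virus, had medians of 63.8 CPM in air and 84.2 in combined with ranges of 44.5 to 106 and 48.0 to 101, and the air maximum was air 6. Its difference of 0.22 ± 0.17 (edgeR adjusted p = 0.383) was 0.42 without air 6 and then passed (edgeR adjusted p = 0.0495). Eif2ak2 (PKR, a kinase that halts translation on double-stranded RNA) ran from 66.2 to 90.2 CPM in air and 74.7 to 97.1 in combined, and 5 of the 6 combined libraries exceeded every air library. Ifit2, an RNA-binding relative of Ifit3, went the other way in value, from a median of 70.7 to 60.5 CPM (-0.23 ± 0.11, adjusted p = 0.132). Bst2 (tetherin, which holds budding virions at the cell surface) stood at 80.4 to 97.8 CPM in 5 air libraries and at 24.4 CPM in air 6, while combined ran from 60.4 to 98.7.

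Within the oligoadenylate synthetase family Oas3 stood alone above the threshold. Oasl, a synthetase-like relative, ran from 4.11 to 11.7 CPM in air, 7.44 to 19.7 in silica, 7.14 to 12.6 in smoke without smoke 2 and 7.51 to 20.7 in combined, with a combined difference of 0.48 ± 0.25 (edgeR adjusted p = 0.179). Oas1a and Oas2 stood at 0.03 ± 0.21 and -0.31 ± 0.25. Mx2, a second GTPase of the Mx family, had medians of 70.9 CPM in air and 73.7 in combined and a difference of -0.17 ± 0.17. Isg20, an exonuclease of RNA, ran from 8.41 to 15.4 CPM in air and 11.3 to 17.6 in combined.

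Rsad2 (viperin, an enzyme that makes a chain-ending nucleotide) varied most between animals of 1 group. Its air libraries ran from 29.4 to 75.9 CPM (median 45.2) and its combined libraries from 28.2 to 57.3 (41.1). Silica ran from 43.0 to 200.1 CPM (52.0) with silica 1 highest, and smoke without smoke 2 ran from 39.6 to 147 (65.6) with smoke 6 highest. Its biological coefficient of variation was 0.864, where the median was 0.128 over members and 0.115 over all genes, and its combined difference was -0.23 ± 0.60, an interval from 0.365-fold to 2.00-fold. Without silica 1, smoke 1 and smoke 2 its coefficient was 0.279 and the difference -0.24 ± 0.25. Cmpk2, its genomic neighbour and partner enzyme, had a difference of -0.14 ± 0.18.

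The guanylate-binding GTPases, which act on intracellular microbes and inflammasomes, were close to equal in combined and air. Gbp2 had medians of 100.4 CPM in air and 101 in combined (-0.02 ± 0.09), and Gbp5 of 55.1 and 54.8 (-0.01 ± 0.10). The other induced genes, Ifi27, Ifi35, Rtp4, Parp9 and Parp14, had differences between -0.21 and 0.11 and none passed. Parp14, an ADP-ribosyltransferase, ran from 172 to 244 CPM in air (median 204) and 177 to 256 in combined (226), and Ifi27 from 177 to 271 (223) and 183 to 235 (209.8), so that both pairs of ranges overlapped over most of their length. Cxcl10, the second CXCR3 chemokine, was too low to test, at medians of 1.31 CPM in air, 3.33 in silica, 1.05 in smoke (1.11 without smoke 2) and 3.09 in combined, with a highest value of 6.71.

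How tightly the data bound the members that did not pass can be read from their intervals. In combined against air the 95% interval of 23 of 31 members lay within 1.5-fold of no change, where 58.3% of all genes did. In silica against air this held for 20 members (66.3% of genes) and in smoke against air for 19 (71.4%). Rsad2, Cxcl9, Oas3 and Oasl had the 4 widest intervals in each comparison with air.

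In silica against air no member was called with edgeR, where 3.17% of genes were (2.15% higher, 1.01% lower). At an unadjusted p under 0.05 there were 5 members, 4 higher and 1 lower, where 18.2% of genes passed. Ifit3 came nearest, at 0.59 ± 0.19 (edgeR adjusted p = 0.0858), and the lowest silica and highest air library both stood at 41.2 CPM. Usp18 stood at 0.50 ± 0.17 (0.104), Cxcl9 at 0.87 ± 0.36 (0.187), Eif2ak2 at 0.20 ± 0.09 (0.246) and Ifi27, a small membrane protein, at -0.23 ± 0.11 (0.237). Without silica 1, smoke 1 and smoke 2 Ifit3 passed and was the only member called, where 11.8% of genes were called (5.96% higher). DESeq2 called no member, where it called 1.11% of all genes higher and 0.308% lower. Limma voom called Ifit3 and Usp18, and a fit of the 12 libraries alone called Ifit3. The share of all genes was not taken for limma voom or for the 12 libraries alone.

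In smoke against air no member was called by edgeR, DESeq2 or limma voom, where 0.15% of genes were called by edgeR, so few genes of any kind passed. At an unadjusted p under 0.05 there were 4 members, all higher, where 8.29% of genes passed. Gbp5 ran from 57.8 to 71.8 CPM in smoke without smoke 2 (median 69.7) against 45.7 to 63.6 in air, a difference of 0.30 ± 0.11 (edgeR adjusted p = 0.367). Ifit3 stood at 0.49 ± 0.20 (0.470), Oas3 at 0.74 ± 0.32 (0.530) and Dhx58 at 0.31 ± 0.14 (0.568). Rsad2 stood at 1.17 ± 0.61 (0.643), the largest value of the 31, and at 0.62 ± 0.26 (0.460) without silica 1, smoke 1 and smoke 2. No member was called in that set either.

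**Figure D3:**
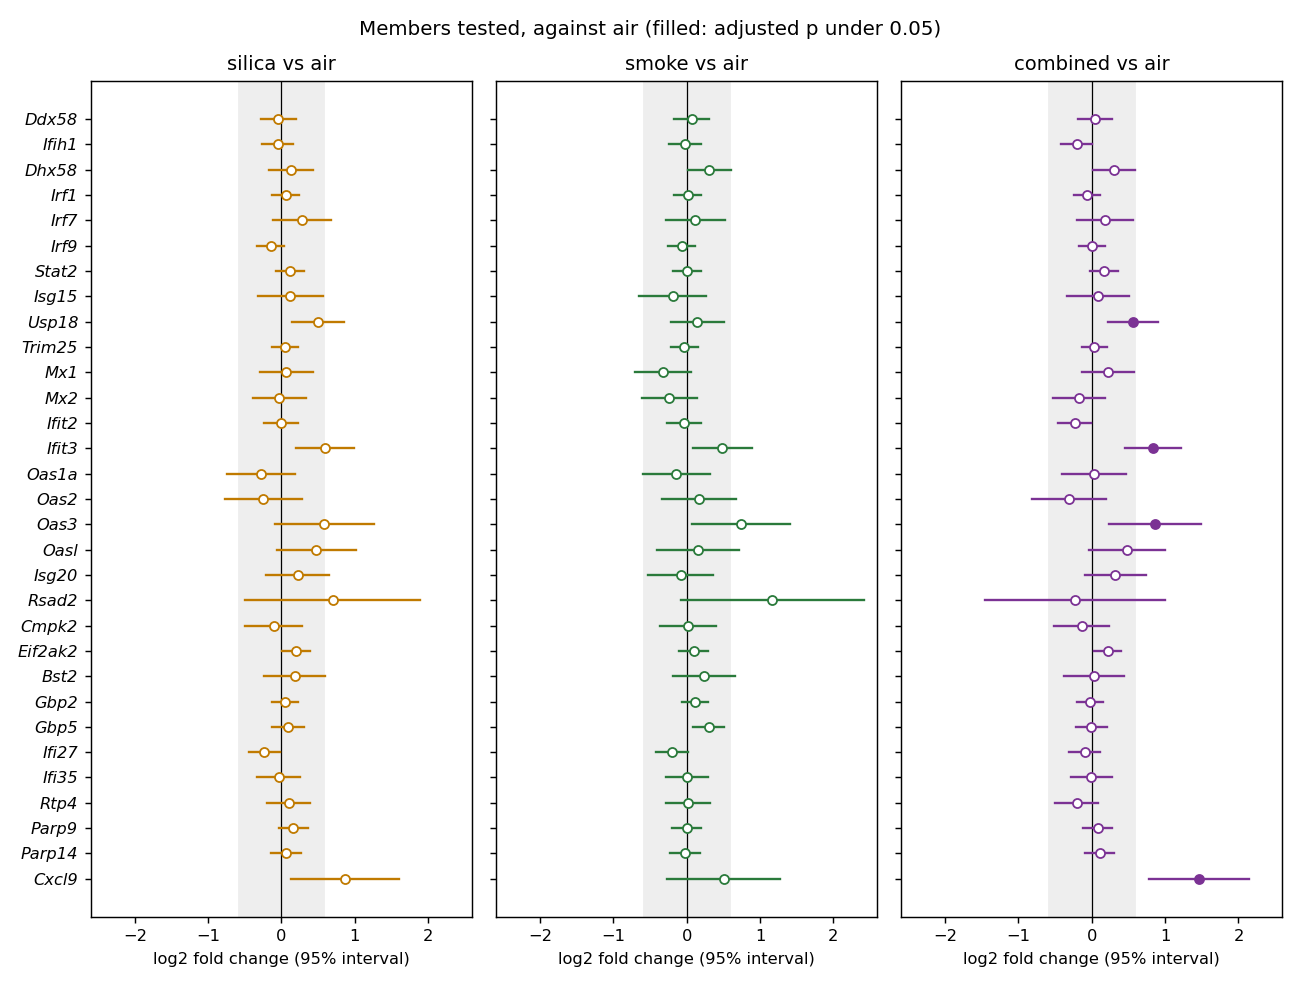
Log2 fold changes against air with 95% intervals (horizontal axes) for the 31 tested members (vertical axis), in silica, smoke and combined from left to right; the shaded band is 1.5-fold of no change and filled points passed an adjusted p under 0.05. The 4 filled points, Usp18, Ifit3, Oas3 and Cxcl9, are all in combined against air, and the 3 comparisons share the air libraries.

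Adding smoke to silica moved no member past the threshold. In combined against silica 1 member had an unadjusted p under 0.05, Rtp4, a chaperone of receptors, at -0.31 ± 0.15 (edgeR adjusted p = 0.383). Of all genes 0.248% were called and 12.9% had an unadjusted p under 0.05. The members that rose against air stood at 0.24 ± 0.19 (Ifit3), 0.60 ± 0.33 (Cxcl9), 0.06 ± 0.17 (Usp18) and 0.28 ± 0.31 (Oas3). The intervals ran from 0.906-fold to 1.55-fold for Ifit3 and from 0.952-fold to 2.41-fold for Cxcl9. DESeq2 and limma voom also called no member, with 0 at an unadjusted p under 0.05 in each.

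In combined against smoke no member was called with edgeR or DESeq2, where edgeR called 12.9% of genes (7.34% higher, 5.57% lower). At an unadjusted p under 0.05 there were 5 members, 3 higher and 2 lower, where 27.9% of genes passed. Mx1 stood at 0.55 ± 0.19 (edgeR adjusted p = 0.0533), Cxcl9 at 0.96 ± 0.34 (0.0604) and Usp18 at 0.41 ± 0.18 (0.124). Gbp5 stood at -0.31 ± 0.11 (0.0561) and Rsad2 at -1.40 ± 0.63 (0.145). The nearest of these to the threshold depended on single libraries, and without silica 1, smoke 1 and smoke 2 Ifit3, Isg20 and Mx1 were called higher and Gbp5 and Rsad2 lower, where 20.1% of genes were called (9.9% higher, 10.2% lower).

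The interaction, which asks whether the log2 change with both exposures differed from the sum of the changes with each, called no member and no gene (0%) with edgeR, and DESeq2 and limma voom called no member either. At an unadjusted p under 0.05 there were 3 members by edgeR, Gbp5 at -0.39 ± 0.15 (adjusted p = 0.608), Rsad2 at -2.09 ± 0.86 (0.637) and Ifi27 at 0.34 ± 0.15 (0.651), where 7.33% of genes passed. The Rsad2 value includes smoke 2 at 4872 CPM and silica 1 at 200 CPM. With 1 library left out it ran from -2.40 to -1.42. The 4 members called in combined against air had values of 0.09 ± 0.51 (Cxcl9), -0.24 ± 0.27 (Ifit3), -0.09 ± 0.25 (Usp18) and -0.46 ± 0.45 (Oas3).

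The interferons themselves were close to undetected. Of the 12 interferon genes that were counted, 9 had no count in any library, which allows up to 0.0550 CPM over the 54549027 counts of all libraries (counting error only). The other ligands had 16 counts in all, 10 of them from Ifng in 9 libraries, 5 from Ifne and 1 from Ifna11, and none could be tested.

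The wider interferon pathway was read from 108 genes in 6 lists, of which 105 were in the table and 87 were tested. These lists were chosen with earlier results of these data known. Their shares beside those of all genes are therefore a description and not a test. In combined against air 16 of the 87 rose (18.4%) and 1 fell (1.15%), where 11.6% of all genes rose and 10.8% fell. In silica against air 5 rose (5.75%, where 2.15% of all genes did), and in combined against smoke 10 rose (11.5%, where 7.34% did). In smoke against air, combined against silica and the interaction none was called by edgeR, where 0.15%, 0.248% and 0% of all genes were. There 7, 7 and 6 of the 87 had an unadjusted p under 0.05, where 8.29%, 12.9% and 7.33% of all genes did. Without silica 1, smoke 1 and smoke 2 the counts were 18 higher and 3 lower in combined against air, 9 higher and 1 lower in silica against air and 16 higher in combined against smoke. Of all genes in that set 12.1% were higher and 13.5% lower, 5.96% higher and 5.85% lower, and 9.9% higher and 10.2% lower, in the same order. With DESeq2 the counts were 12 higher and 0 lower (6.43% and 6.07% of all genes), 4 higher (1.11%) and 3 higher (3.34%). The genes not called by DESeq2 in combined against air were Ifngr2, Samhd1, Ikbke, Psmb10 and Rnf125, with adjusted p of 0.0645, 0.114, 0.150, 0.176 and 0.151. The genes that rose with silica were Tmem173, Cd274, Ifi30 (0.72 ± 0.15), the growth regulator Slfn3 (0.52 ± 0.15) and Il10rb (0.40 ± 0.11), of which Il10rb did not pass with DESeq2 (adjusted p = 0.243). Those higher in combined than in smoke included Ifi30 (0.83 ± 0.15), the secreted glycoprotein gene Lgals3bp (0.44 ± 0.10), the endosomal RNA receptor Tlr8 (0.48 ± 0.12) and Ptpn6 (0.37 ± 0.11), and with DESeq2 only Ifi30, Lgals3bp and Tmem173 passed there.

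In combined against air, where edgeR called 11.6% of all genes higher, 4 of 11 receptor, kinase and STAT genes rose (3 with DESeq2). They were Il10rb, a receptor chain shared by type III interferons and interleukin-10, at 0.44 ± 0.11, Ifngr2, the second chain of the interferon gamma receptor, at 0.42 ± 0.12, and Stat3 and the kinase Jak2 at 0.28 ± 0.08 and 0.26 ± 0.07. Among the genes that did not pass, the kinase Jak1 and the type I receptor chain Ifnar1 stood at 0.03 ± 0.07 and 0.07 ± 0.07.

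Of 14 tested genes of nucleic acid sensing 4 rose (2 with DESeq2, Tmem173 and Myd88), where 11.6% of all genes rose with edgeR. Tmem173 (STING, the adaptor of the cytosolic DNA pathway) ran from 8.61 to 20.6 CPM in air (median 13.4), 12.8 to 36.2 in silica (30.1), 12.2 to 28.8 in smoke without smoke 2 (17.1) and 22.5 to 46.2 in combined (32.5), and every combined library stood above every air library. The differences from air were 1.34 ± 0.23 in combined (edgeR adjusted p = 1.16e-04) and 1.07 ± 0.24 in silica (0.0134), and combined exceeded smoke by 0.86 ± 0.24 (0.0162). The adaptor of Toll-like receptors Myd88 stood at 0.62 ± 0.12, the nucleotide hydrolase Samhd1 at 0.46 ± 0.14 and the kinase Ikbke at 0.34 ± 0.13. Irf3 and Tbk1, the factor and kinase downstream of STING, did not pass (-0.19 ± 0.09 and 0.08 ± 0.09).

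Of 8 negative regulators 1 rose and 1 fell in combined against air, where 11.6% of all genes rose and 10.8% fell with edgeR. The phosphatase Ptpn6 (SHP-1) rose, at 0.37 ± 0.10. Rnf125, a ligase that marks RIG-I for destruction, fell, at -0.24 ± 0.09 (not with DESeq2). The most abundant ones that did not pass, the cytokine signalling suppressor Socs3 and the SUMO ligase Pias1, stood at 0.37 ± 0.19 and -0.09 ± 0.08. Of 37 further interferon-induced genes 3 rose, a smaller share than the 11.6% of all genes. The 3 were the lysosomal thiol reductase Ifi30 at 1.09 ± 0.15, Lgals3bp at 0.62 ± 0.10 and Ifitm1, a membrane protein that hinders virus entry, at 0.58 ± 0.12. Slfn3 and the helicase-domain gene Helz2 were the most abundant that did not pass (0.31 ± 0.14 and -0.25 ± 0.10). The list's median was -0.03, near the -0.01 of all genes. Of 17 genes listed as induced by interferon gamma 4 rose (3 with DESeq2), where 11.6% of all genes rose with edgeR. The 4 were the checkpoint ligand Cd274 (PD-L1), the MHC class II activator Ciita at 0.59 ± 0.13, the myeloid transcription factor Irf8 at 0.56 ± 0.14 and the immunoproteasome subunit Psmb10 at 0.38 ± 0.13. Cd274 ran from 13.3 to 34.0 CPM in air (median 25.7), 27.9 to 67.9 in silica (46.3), 24.3 to 48.9 in smoke without smoke 2 (33.7) and 46.9 to 57.0 in combined (53.0), with no overlap between air and combined. It rose by 1.10 ± 0.18 in combined (edgeR adjusted p = 6.93e-05) and 0.97 ± 0.19 in silica (0.00422). B2m and Tapbp, of MHC class I, did not pass (0.22 ± 0.17 and 0.24 ± 0.13). Yet B2m ran from 1713 to 1903 CPM in air and from 1992 to 2279 in combined, with no overlap, and smoke 2 reached 5454 CPM. Without silica 1, smoke 1 and smoke 2, B2m was called higher in combined against air.

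**Figure D4:**
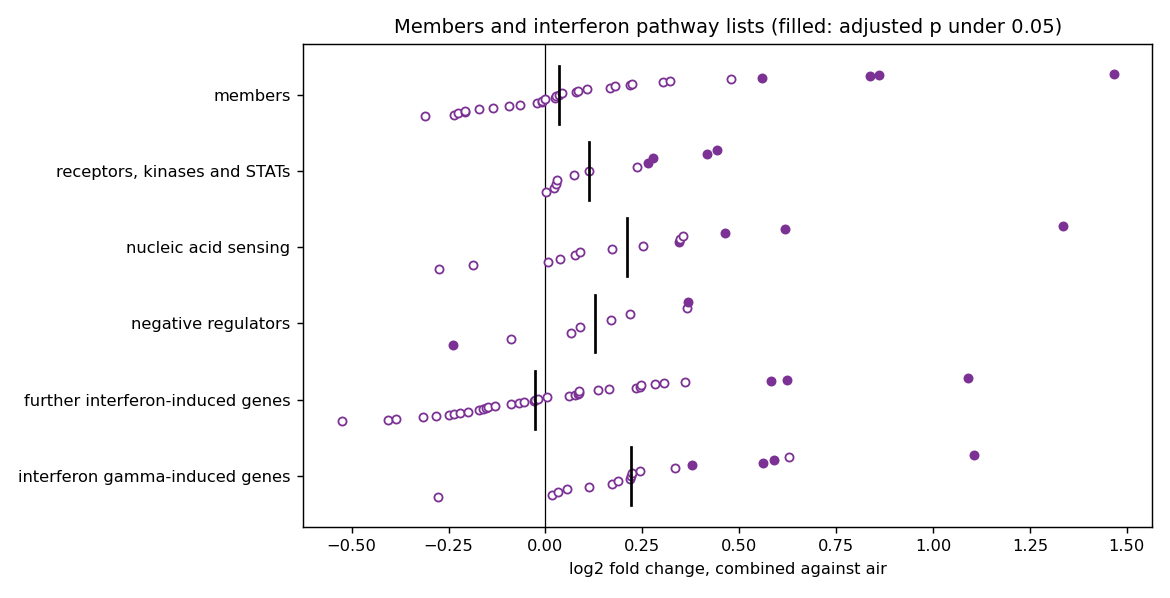
Each point is 1 gene, placed by its log2 fold change in combined against air (horizontal axis) in the row of its list; filled points passed an adjusted p under 0.05 and the black bar is the list's median. Most members and most further interferon-induced genes lie on both sides of 0, with medians of 0.04 and -0.03. The member Cxcl9 (1.47) and the pathway genes Tmem173, Ifi30 and Cd274 lie above 1.

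Markers of other cell types moved in the same comparison, and in bulk lung fewer cells of a type and less RNA per cell cannot be told apart. Where 11.6% of all genes rose and 10.8% fell in combined against air, 4 of 9 tested macrophage markers rose and 1 fell, with summed levels of 587 to 1000 CPM in air and 1009 to 1144 in combined, and 5 of 7 neutrophil markers rose, from 113 to 193 CPM in air to 419 to 865 in combined. Of 5 endothelial markers 4 fell (2639 to 3209 CPM in air, 1955 to 2198 in combined), 3 of 5 type 1 cell markers fell and 4 of 7 type 2 cell markers rose. Of 4 airway epithelial markers 2 fell, and of 4 tested B and plasma cell markers 1 rose. T and NK cell markers, the cells that CXCR3 chemokines attract and the main makers of interferon gamma, had 0 of 12 called by edgeR (1 at an unadjusted p under 0.05) and summed to 189 to 278 CPM in air and 186 to 261 in combined. Of 3 tested plasmacytoid dendritic cell markers 1 fell, Tcf4, which endothelium also expresses, and the summed levels were 102 to 126 CPM in air and 74.9 to 97.5 in combined. Of the macrophage markers Marco was at 0 in every air library, with 10 counts in the whole table, and of the plasmacytoid dendritic cell markers Ly6d was at 0 in every library. The part of these shifts in the members' and pathway genes' values was not tested.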

How the data were processed

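The values are raw counts of reads per gene in 24 lung libraries, as the authors deposited them. HTSeq 0.11.2, HISAT2 2.1.0, SAMtools 1.8, Trimmomatic 0.35, bcl2fastq 2.19 and Cufflinks are named, per the submitters' processing notes, and per the labels' protocols libraries were stranded and depleted of ribosomal RNA. The counting's build, annotation and strand setting were not given in the sources used here. Of 30069 lines 26 repeated another line and were removed.

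Counts were tested in R 4.3.3 with edgeR 4.0.16: filterByExpr with a minimum count of 10, TMM scaling, 1 quasi-likelihood fit with a mean per group over all 24 libraries (20 residual degrees of freedom), two-sided tests and Benjamini-Hochberg adjustment over 13322 genes. A standard error is the size of the log2 fold change over the root of its F statistic. The script was checked on simulated counts. Alternatives were RLE scaling, no filter, DESeq2 1.42.0, limma 3.58.1 voom with quality weights, the libraries of 2 groups alone, each library left out in turn, and the libraries named in the text left out.

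The labels give 6 separate rats per group. Replicate numbers are the order of deposit and pair nothing. Between 2 libraries of a group the chi-square over its degrees of freedom was at least 1.73, so none agreed within counting noise. Older symbols were matched and promoters taken from RefSeq tables (GRCr8), and no coordinate was taken from the counts' own build. All members are described by role: called ones with their values, of each pathway list up to 4 called genes and the 2 most abundant not called, in combined against air. The members, lists and roles were chosen with earlier results of these data known.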

Additional observations from a re-analysis of the deposited data

Results flagged for a closer look

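In each group of 6 libraries the highest or lowest value was examined for a gap to its neighbour wider than Dixon's 95% limit. This was done for each member and for the members' sum, 136 groups in all. There were 34 such values, and chance gives about 1 in 20 groups. Smoke 2, the library of 21629 counts, gave 25 of them. It was lowest of the smoke libraries at 0 CPM for Ddx58, Ifih1, Dhx58, Irf9, Stat2, Trim25, Ifit2, Bst2, Gbp5, Ifi35, Rtp4 and Parp9, at 53.0 CPM for Irf1 and Eif2ak2 and at 106 CPM for Ifi27 and Parp14. It was highest for Rsad2 at 4872 CPM, Irf7 at 530 CPM (529.5), Ifit3 at 424 CPM, Cmpk2 at 265 CPM, Mx1 and Gbp2 at 159 CPM, Isg15 at 106 CPM, Isg20 at 53.0 CPM and the sum of the members at 6937 CPM. Since 1 count is worth 53.0 CPM there, all but the sum, Rsad2, Irf7, Ifit3 and Cmpk2 rest on 0 to 3 counts.

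Outside smoke 2, Bst2 in air 6 stood lowest at 24.4 CPM, and Rsad2 in silica 1 highest at 200.1 CPM. Silica 1 was also highest for Trim25 at 74.9 CPM, and silica 3 for Cmpk2 at 31.4 CPM. Silica 4, the library of 280484 counts, was lowest for Irf1 at 86.1 CPM and highest for Isg15 at 39.5 CPM. Combined 3 was lowest for Eif2ak2 at 74.7 CPM and Parp9 at 102 CPM, and combined 4 for Dhx58 at 19.7 CPM.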

How the results depend on the processing

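Leaving out silica 1, smoke 1 and smoke 2, and also air 6, are 2 alternatives added with the data already seen. In combined against air the 4 members called higher became 1 with DESeq2 (Cxcl9), ranged from 2 (without combined 6) to 5 when 1 library was left out, and were 4 to 6 under the other settings, while the 0 called lower became 1 (Ifit2) when air 6 was left out with the other libraries. Ifit3 and Cxcl9 stayed called with any 1 of the 24 libraries left out. In silica against air the 0 called higher became 2 with limma voom (Ifit3, Usp18), 1 with the 2 groups alone (Ifit3), 1 without silica 1, smoke 1 and smoke 2, and 2 when air 6 was also left out, with 0 to 1 over single libraries (1 without air 6 and 1 without smoke 2). In combined against smoke the 0 called higher became 1 with no filter (Mx1), 3 with limma voom, 2 with the 2 groups alone, 3 without silica 1, smoke 1 and smoke 2 and 4 when air 6 was also left out, with 0 to 2 over single libraries. The 0 called lower became 1 with RLE, limma voom or the 2 groups alone (Gbp5 each time) and 2 in both added alternatives (Gbp5, Rsad2), with 0 to 1 over single libraries. The counts for smoke against air, combined against silica and the interaction were 0 under each setting. With air 6 also left out edgeR called 13.1% of all genes higher and 11.9% lower in combined against air. It called 6.62% higher in silica against air, 13.2% higher and 12% lower in combined against smoke, and 0.141% in the interaction. DESeq2 called 6.43% of all genes higher in combined against air. For RLE, no filter, limma voom, the 2 groups alone and single libraries left out, the share of all genes was not taken. Ifit3 in combined against smoke went from 0.35 to -0.018 on the log2 scale with DESeq2 (adjusted p = 0.99). Of the 87 pathway genes the 10 called higher in combined against smoke became 3 with DESeq2 and 16 without silica 1, smoke 1 and smoke 2, and the 5 higher in silica against air became 9 without those libraries. The cause was not tested for these changes.

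No paired analysis was possible because replicate numbers are the order of deposit within a group and pair no animals. Depth limits Ifit1, Cxcl10 and the ligands, which could not be tested, and Oas3, at a few CPM. Smoke 2 measures no member with under 3 counts.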
